A study of Rattus norvegicus with 6 samples.

Results

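The genes described here encode the proteins of the mitochondrial ribosome, the particle that translates the few messages made inside mitochondria. They were defined by symbol, but the family was chosen with earlier results of these data known. Members are 75 of 17954 genes, named Mrpl (large subunit) or Mrps (small subunit) plus a number and at most 1 letter (a to c). Of these, 46 carry a large subunit symbol and 29 a small subunit symbol, and all 75 passed the filter on low counts. Their transcripts were counted by RNA sequencing in chondrocytes of the rat mandibular condyle, the cartilage-covered head of the jaw joint. They were grown as a flat layer in DMEM with fetal bovine serum and antibiotics (2D culture, 3 libraries) or as a condylar cartilage organoid in a chondrogenic medium (3 libraries), both at the same temperature and CO2. The effects of culture format, of medium and of serum cannot be told apart, since all 3 differed at once. The labels give no strain, age, genotype or time in culture, nor whether the 3 libraries of each group stem from different animals or dishes. The p-values therefore measure only the spread among these libraries, which may be technical.

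Mitochondrial ribosomes consist of RNAs transcribed from mitochondrial DNA and of proteins that are all encoded in the nucleus, made in the cytosol and imported. Their products are core subunits of the respiratory chain and of ATP synthase, so that respiration needs this second translation system. Cartilage is a tissue without blood vessels in which chondrocytes rely largely on glycolysis.

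Total expected counts ran from 18592574 to 26472447 per library. Levels are CPM, counts scaled to a common library total after TMM normalisation, whose factors were 1.23 to 1.27 in 2D culture and 0.662 to 0.896 in organoids. A gene was called when its adjusted p was under 0.05 in edgeR's quasi-likelihood test over 13052 genes, and each log2 fold change compares organoids with 2D culture and is given ± SE. Of the 9 chondrocyte markers 7 were called higher in organoids. The 9 summed to 1499 to 1601 CPM in 2D culture and 11488 to 99463 CPM in organoids. Acan, not called, made up most of the 2D sum (1413 to 1513 CPM, against 1716.5 to 8278 CPM in organoids). Col2a1 made up most of each organoid sum (6414 to 78321 CPM). All 5 osteoblast markers were also called higher (65.2 to 69.0 against 10704 to 16737 CPM). Markers of macrophages and blood, 6 in number, summed to 7.49 to 10.2 CPM in 2D culture and 16.7 to 64.0 CPM in organoids, with Adgre1 at 0 in all 6 libraries and Ptprc at 0.142 CPM or less. The 5 skeletal muscle markers summed to 6.83 to 9.502 CPM in 2D culture and to 5.77 to 72.1 CPM in organoids, and the lists of 5 endothelial, 4 epithelial, 4 adipocyte and 4 neuron markers to at most 12.8 CPM in any library. In the lists of macrophages and blood, muscle, adipocytes and neurons 1 marker each was called higher (Lyz2, Tnnt3, Fabp4 and Map2), and 0 tested markers of any list were called lower. The low-count filter left untested 1 chondrocyte, 3 macrophage and blood, 4 endothelial, 1 muscle, 3 epithelial, 3 adipocyte and 3 neuron markers. Whether these cell types had a part in the results was not tested, and in bulk RNA fewer cells of a type and less RNA per cell cannot be told apart.

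NRF1, ETS factors such as GABP, and YY1 are known regulators of nuclear genes for mitochondria, and their motifs were searched in the promoters of the members. Promoters from 250 bases before to 50 bases after the first listed RefSeq start (build GRCr8) were found for 61 of the 75 members, and 34 of these 61 held at least 1 of the 3 motifs (55.7%, beside 29.2% of promoters of tested genes). Shown are the bases just before the start of 3 called members, whose counts were lower in organoids (Mrpl17, Mrps18b and Mrps27), and of 2 members that were not called (Mrpl53 and Mrpl57). Capitals mark an NRF1 motif (GCGCA, any base, GCGC, or on the other strand GCGC, any base, TGCGC) or an ETS motif (CCGGAAG or CTTCCGG).

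Mrpl17, chr1:169575700-169575819, minus strand: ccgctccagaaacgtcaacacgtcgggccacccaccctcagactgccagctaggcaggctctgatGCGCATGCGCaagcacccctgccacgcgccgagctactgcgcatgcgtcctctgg

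Mrps18b, chr20:2842886-2843005, plus strand: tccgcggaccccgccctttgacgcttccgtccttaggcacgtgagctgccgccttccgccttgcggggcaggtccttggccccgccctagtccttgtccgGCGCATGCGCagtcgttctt

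Mrps27, chr2:32474114-32474203, plus strand: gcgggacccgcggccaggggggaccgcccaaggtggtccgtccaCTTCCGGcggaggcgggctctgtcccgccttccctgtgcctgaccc

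Mrpl53, chr4:117172923-117173042, plus strand: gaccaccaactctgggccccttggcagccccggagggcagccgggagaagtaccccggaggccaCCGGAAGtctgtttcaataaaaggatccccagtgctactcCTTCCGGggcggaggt

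Mrpl57, chr15:36086337-36086456, plus strand: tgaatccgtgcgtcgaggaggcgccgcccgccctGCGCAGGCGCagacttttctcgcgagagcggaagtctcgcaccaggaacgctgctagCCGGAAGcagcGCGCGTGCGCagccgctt

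Within the stretches shown, Mrpl17 and Mrps18b hold 1 NRF1 match each, beginning 55 and 20 bases before the start, and Mrps27 holds 1 ETS match 46 bases before it. In these stretches the members that were not called hold as many or more. Mrpl53 has 2 ETS matches, and Mrpl57 has 2 NRF1 matches and 1 ETS match. In the searched promoters Mrps18b also holds 1 ETS and 1 YY1 match, and Mrps27 1 YY1 match, that reach past the start. Such letters thus stand in both kinds of member shown.

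Where transcripts of the mitochondrial ribosome passed the test, they were lower in organoids. Of 46 large subunit genes 7 fell, 0 rose and 39 did not pass, and of 29 small subunit genes 7 fell, 0 rose and 22 did not pass. Those shares are 15.2% and 24.1%, beside 12.6% of all tested genes called lower and 14.9% called higher. For the large subunit the share called lower is thus near the background. The median log2 fold change was -0.53 over the large and -0.71 over the small subunit, beside -0.03 over all tested genes. The gap between the subunits rests on single organoids: without organoid 1 the medians were -0.40 and -0.46, and without organoid 3 they were -0.63 and -0.62. The log2 fold change was negative in 40 of 46 large and 26 of 29 small subunit genes, against 51% of all tested genes.

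The middle 50% of large subunit genes lay between -0.96 and -0.21 and of small subunit genes between -0.92 and -0.28 on the log2 scale, while that of all tested genes ran from -0.83 to 0.91. The family thus covered a narrower range than genes at large. At an unadjusted p under 0.05 stood 27 members, or 36%, beside 40.6% of all tested genes. The members were thus no more often past that threshold than other genes, but lay mostly on 1 side. In 23 large and 18 small subunit genes all 3 organoids lay below all 3 2D cultures, which are 50% and 62.1% of the genes beside 30.2% of all tested genes. In 0 members did all organoids lie above all 2D cultures, against 23.4% of all tested genes.

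**Figure D1:**
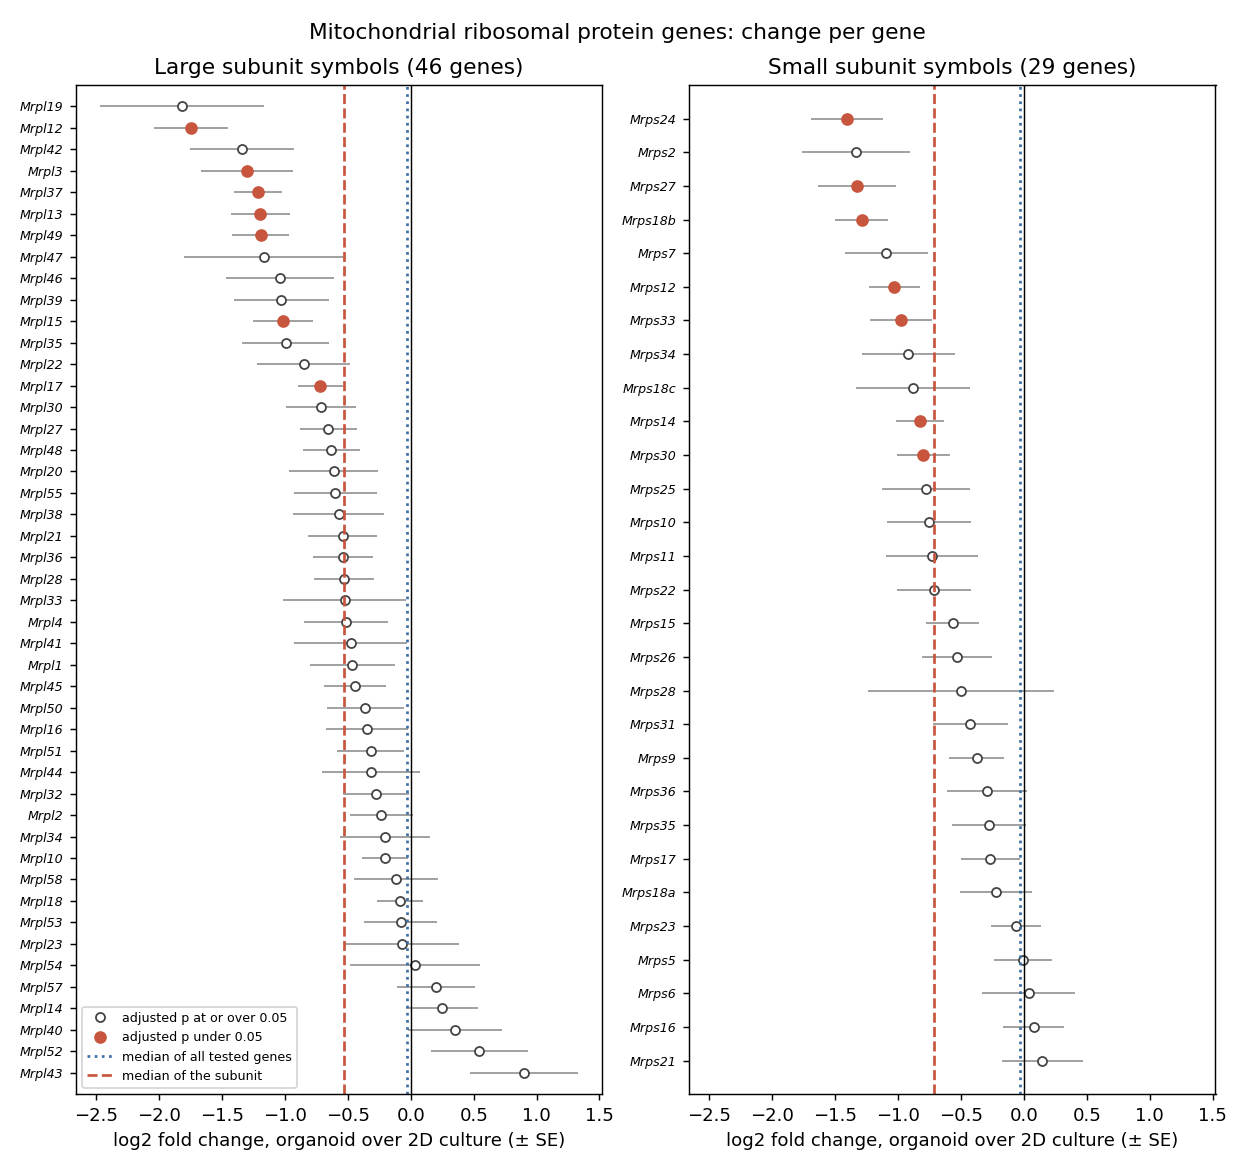
Log2 fold change of each member, organoid over 2D culture (x axis), with its standard error, for large subunit symbols (left, 46 genes) and small subunit symbols (right, 29 genes). Filled points passed the test, dashed lines mark the subunit medians (-0.53 and -0.71) and the dotted line the median of all tested genes (-0.03).

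Scaling sets the absolute position of these values. When libraries were scaled by their totals alone, the median of all tested genes moved to -0.65, and 24 large and 16 small subunit genes were called lower, beside 27.1% of all tested genes. Scaling moves all genes of a library by the same factor. The distance between the members' median and that of all genes could therefore hardly change with it. This distance went from -0.50 to -0.48 in the large and from -0.68 to -0.64 in the small subunit, which is no check on the scaling. Over all 15 alternative analyses the distance ran from -0.58 to -0.33 in the large and from -0.71 to -0.42 in the small subunit. The calls also rest on all 3 2D cultures: without 2D culture 1, 2 and 3 the large subunit kept 2 calls each time and the small subunit 0, 1 and 1, beside 2.98%, 3.27% and 3.03% of all tested genes called lower. Over all genes the calls fell likewise, to 1114, 1211 and 1109 from 3594.

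The stalk of the large subunit recruits translation factors, and its protein Mrpl12, which is also known to bind the mitochondrial RNA polymerase, showed the largest called fall. Mrpl12 was at 104, 108 and 109 CPM in 2D culture and at 25.7, 45.6 and 24.4 CPM in organoid 1, 2 and 3. Every organoid lay below every 2D culture, with organoid 2 highest among them. Its log2 fold change was -1.74 ± 0.29 (edgeR adjusted p = 0.00745), a 3.35-fold lower level, and it was called under all 15 alternatives. Mrpl10, which anchors Mrpl12 in the stalk, stood at 59.9, 59.3 and 59.2 CPM in 2D culture and at 52.4, 48.2 and 54.3 CPM in organoids. The groups did not overlap, yet the change of -0.20 ± 0.18 did not pass (adjusted p = 0.441). The row written mrpl11, the stalk base protein, is 1 of 3 rows with a lower-case symbol that the naming rule leaves out, and its log2 fold change was -0.11 ± 0.42.

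Around the peptidyl transferase centre and the wall of the exit tunnel, 1 of 4 genes fell (25%, beside 12.6% of all tested genes). Mrpl3 was at 54.6, 62.0 and 57.6 CPM in 2D culture and at 35.4, 13.5 and 21.8 CPM in organoids (-1.30 ± 0.36, adjusted p = 0.0387). All organoids lay below all 2D cultures, and organoid 2 was lowest. The call was lost without organoid 3 (-1.26, adjusted p = 0.0769) and without each 2D culture (adjusted p from 0.113 to 0.126). Mrpl2, Mrpl4 and Mrpl16 did not pass, at -0.24 ± 0.25, -0.51 ± 0.33 and -0.35 ± 0.33. Mrpl4 ran from 26.2 CPM in organoid 2 to 63.6 CPM in organoid 3, against 63.1 to 66.1 CPM in 2D culture.

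At the mouth of the tunnel, where new proteins meet the inner membrane, 1 of 8 genes fell (12.5%, beside 12.6% of all tested genes). The 8 include mrpl24, a row with a lower-case symbol. All 8 log2 fold changes were negative (median -0.68), as were 51% of those of all tested genes. Mrpl17 had 260, 266 and 261 CPM in 2D culture and 170, 146 and 163 CPM in organoids. The groups lay far apart relative to their spread, and the change was -0.72 ± 0.18 (adjusted p = 0.0267). Mrpl45, which ties the ribosome to the inner membrane, stood at 118, 111 and 115 CPM in 2D culture and at 82.6, 61.7 and 109 CPM in organoids. It did not pass (-0.44 ± 0.25, adjusted p = 0.222). Mrpl44, a protein with an RNase III fold, was at 19.6, 20.1 and 19.0 CPM in 2D culture and 17.3, 8.23 and 21.6 CPM in organoids. Its groups overlapped (-0.31 ± 0.39). Mrpl23 was high in organoid 2 alone, at 122 CPM beside 37.9 and 44.5 CPM in organoid 1 and 3 and 67.2 to 75.5 CPM in 2D culture. The change of Mrpl23 was -0.07 ± 0.45, and it was called lower without organoid 2.

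The central protuberance is the crown of the large subunit that faces the small subunit. Of its 8 genes listed here 0 were called, beside 27.5% of all tested genes called either way. Mrpl18 varied little, between 61.1 and 65.2 CPM in 2D culture and between 55.1 and 63.9 CPM in organoids (-0.09 ± 0.18). Mrpl58, a peptidyl-tRNA hydrolase that was built into the ribosome, was at 33.1, 29.6 and 30.5 CPM in 2D culture and at 27.3, 41.0 and 17.5 CPM in organoids. Organoids lay on both sides of the 2D cultures (-0.12 ± 0.33). Mrpl46 had the most negative value of the 8, -1.04 ± 0.43, with 20.7 to 23.3 CPM in 2D culture and 12.3, 4.99 and 14.5 CPM in organoids (adjusted p = 0.118).

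Among other large subunit proteins 4 fell. Mrpl37, a protein with no bacterial counterpart, had 87.6, 97.5 and 85.7 CPM in 2D culture and 36.1, 36.7 and 44.0 CPM in organoids. Its organoids agreed closely, and its change of -1.21 ± 0.19 gave the lowest adjusted p of the family (0.0061). It was called under all 15 alternatives, and 1 library held a fractional count for it, a sign of reads shared between genes. Mrpl13 was at 56.5, 57.6 and 57.0 CPM against 19.3, 26.3 and 29.1 CPM (-1.20 ± 0.23, adjusted p = 0.012). Mrpl49, another protein found in mitochondria only, was at 44.7, 43.2 and 42.5 CPM against 16.1, 22.4 and 18.5 CPM (-1.19 ± 0.23, adjusted p = 0.0111). Mrpl15 was at 62.5, 60.2 and 59.7 CPM against 38.6, 26.5 and 25.3 CPM (-1.01 ± 0.24, adjusted p = 0.022). None of these 4 genes, picked by the test on the same values, had an organoid that reached a 2D culture, as in 30.2% of all tested genes.

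Some large subunit genes had changes as large without passing, and their organoids lay far apart. Mrpl19 had the most negative value of the family, -1.82 ± 0.65 (adjusted p = 0.082): it was at 27.7, 27.3 and 28.7 CPM in 2D culture and at 10.1, 1.68 and 11.9 CPM in organoids. Organoid 2 lay far below the other organoids, and without it the gene was called lower at -1.29. With all libraries kept, Mrpl19 was called lower by DESeq2, by limma-voom with and without group weights, and with scaling by library totals. Mrpl42 was at 22.9, 28.4 and 25.5 CPM and at 5.95, 8.41 and 15.9 CPM (-1.34 ± 0.41, adjusted p = 0.0514), and DESeq2, limma-voom, scaling by library totals and leaving out organoid 3 each called it lower. At the other end stood Mrpl43, with 9.47, 8.74 and 9.13 CPM in 2D culture and 9.13, 25.8 and 16.2 CPM in organoids (0.90 ± 0.43, adjusted p = 0.165). Mrpl52 was at 29.0, 36.2 and 35.5 CPM and at 23.8, 58.2 and 64.7 CPM (0.54 ± 0.39, adjusted p = 0.335). In both, organoid 1 lay at or below the level of 2D culture, and without it both were called higher (adjusted p = 0.0321 and 0.0246). Mrpl54 and Mrpl53 lay near 0, at 0.04 ± 0.52 and -0.08 ± 0.29. Mrpl54 ranged from 36.1 CPM in organoid 1 to 142 CPM in organoid 2, around a 2D mean of 72.5 ± 5.84 CPM (SD, n = 3).

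The small subunit binds and decodes the message. Mrps24, which lies at the mRNA entrance, had the largest called fall of this subunit, from 57.7, 61.4 and 59.9 CPM to 28.6, 24.2 and 14.7 CPM (-1.41 ± 0.29, adjusted p = 0.0146). Mrps12, at the decoding centre, fell from 57.5, 53.2 and 49.6 CPM to 25.1, 28.7 and 24.7 CPM (-1.03 ± 0.20, adjusted p = 0.0123). Mrps5, also at the entrance, was at 31.8, 32.5 and 36.2 CPM in 2D culture and at 40.2, 28.1 and 31.7 CPM in organoids. Neighbours in the particle thus differed: Mrps24 lay apart in all organoids, and Mrps5 overlapped (-0.01 ± 0.23, adjusted p = 0.988).

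In the head of the small subunit 1 of 4 genes fell (25%, beside 12.6% of all tested genes). In all 4 every organoid lay below every 2D culture, as in 30.2% of all tested genes. Mrps14 was at 66.7, 66.5 and 66.4 CPM in 2D culture and at 35.1, 35.8 and 41.5 CPM in organoids (-0.83 ± 0.19, adjusted p = 0.02). Mrps7 was at 71.6, 76.8 and 70.6 CPM and at 19.0, 40.0 and 43.6 CPM, and lay just past the threshold (-1.09 ± 0.33, adjusted p = 0.0502). It was called lower under 6 of 15 alternatives, DESeq2 and limma-voom among them. Mrps10 and Mrps9 had -0.75 ± 0.34 and -0.38 ± 0.22. On the platform, the side where the message leaves, 0 of 3 genes were called, beside 27.5% of all tested genes. Mrps6 ranged from 11.5 CPM in organoid 2 to 28.2 CPM in organoid 1 around a 2D mean of 21.8 ± 0.749 CPM (0.04 ± 0.37), and Mrps18c was at 7.84, 18.1 and 6.29 CPM against 17.4 to 21.3 CPM (-0.88 ± 0.46).

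Mrps18b, Mrps27 and Mrps33 are other small subunit proteins that fell. Mrps18b was at 72.9, 70.3 and 62.7 CPM in 2D culture and at 29.8, 23.7 and 30.8 CPM in organoids (-1.29 ± 0.21, adjusted p = 0.00659). Mrps27, an RNA-binding protein, was at 35.6, 34.4 and 31.0 CPM and at 17.0, 8.71 and 14.6 CPM (-1.32 ± 0.31, adjusted p = 0.0218). Mrps33 was at 27.6, 27.2 and 27.5 CPM and at 14.8, 11.7 and 15.2 CPM (-0.98 ± 0.25, adjusted p = 0.0264). All 3 organoids lay below 2D culture in each, as in 30.2% of all tested genes, though the test that picked these genes used the same values. Mrps18b kept its call under 14 of 15 alternatives and lost it without 2D culture 1 (adjusted p = 0.0508).

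Some symbols do not match the place of the protein. Mrps30 and Mrps18a are known from structures to sit in the large subunit, and Mrps36 to belong to the alpha-ketoglutarate dehydrogenase complex and not to the ribosome. Mrps30 was at 48.0, 47.5 and 47.5 CPM in 2D culture and fell to 25.4, 24.6 and 32.2 CPM (-0.80 ± 0.21, adjusted p = 0.0327). Mrps18a, at 48.9, 50.9 and 45.8 CPM against 28.3, 39.5 and 56.6 CPM, did not pass (-0.22 ± 0.29), and neither did Mrps36 (19.3, 20.2 and 19.9 against 10.5, 19.6 and 18.5 CPM, -0.29 ± 0.32). Sorted by position, 8 of 48 large and 6 of 26 small subunit genes fell. These shares are 16.7% and 23.1%, beside 12.6% of all tested genes, and the medians were -0.53 and -0.72. Both ways of sorting gave nearly the same medians. Mrps28 had the lowest counts of the family, at 2.15, 2.996 and 2.32 CPM in 2D culture and 1.30, 3.12 and 0.852 CPM in organoids, and its SE of 0.74 was the largest of the family (-0.50 ± 0.74). Mrps23, at 38.6, 42.5 and 38.6 against 38.8, 34.3 and 41.4 CPM, lay near 0 with a small error (-0.06 ± 0.20).

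**Figure D2:**
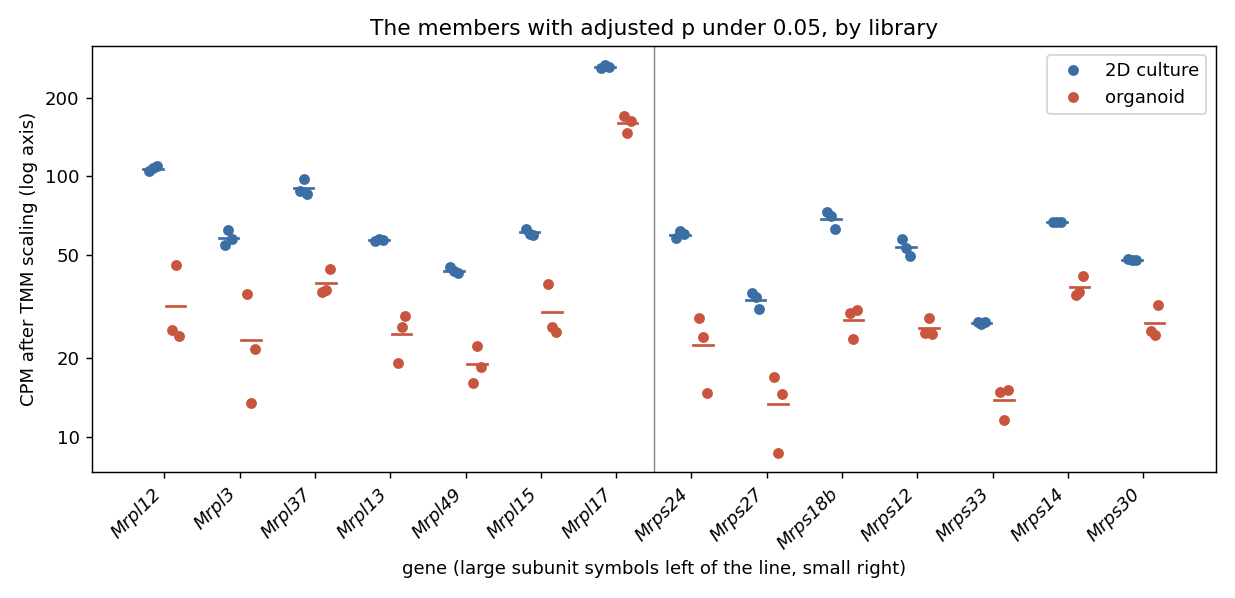
Level of the 14 called members in each library, in CPM on a log axis, with large subunit symbols left of the line and small right. Points are libraries and bars are group means. In all 14 genes the 3 organoids lie below the 3 2D cultures, as in 30.2% of all tested genes. These 14 genes were picked by the test on the same values, so this lack of overlap adds no support. Among organoids Mrpl3 spreads most, from 13.5 to 35.4 CPM.

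Of the members, 45 descend from bacterial ribosomal proteins and 30, Mrps36 included, have no bacterial ribosomal counterpart. Of the former 9 fell (20%, median -0.57) and of the latter 5 (16.7%, median -0.46), beside 12.6% of all tested genes. Within the large subunit the medians were -0.54 over 27 genes and -0.36 over 19 genes, and within the small subunit -0.65 over 18 and -0.71 over 11. By median, members of bacterial origin were lower than the others in the large subunit and not in the small one, and this difference was not tested. The members with the 5 highest values (Mrpl14, Mrpl57, Mrpl40, Mrpl52 and Mrpl43) all belong to the large subunit, and all but Mrpl14 have no bacterial counterpart.

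Library by library, organoid 1 lay lowest and organoid 2 highest. The summed level of the 46 large subunit genes was 2199, 2314 and 2244 CPM in 2D culture and 1304, 1790 and 1574 CPM in organoid 1, 2 and 3. The 29 small subunit genes summed to 1108, 1142 and 1097 CPM and to 613, 778 and 760 CPM. Both sums were lower in every organoid than in any 2D culture. The median log2 ratio to the 2D mean was -0.80, -0.36 and -0.57 for the large subunit and -0.90, -0.33 and -0.62 for the small, in organoid 1, 2 and 3, beside -0.10, -0.13 and -0.19 for all tested genes.

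Organoid 1 was the lowest organoid for 41 of 75 members (54.7%, beside 29% of all tested genes), and organoid 2 the highest for 37 (49.3%, beside 37.7%). This order was not particular to the members. The 2 shares were 78.1% and 86.3% for proteins of the cytosolic ribosome and 63.2% and 56.6% for nuclear respiratory chain subunits. For mitochondrial protein import they were 35% and 30%. The number of members below their 2D mean was 71 in organoid 1, 57 in organoid 2 and 63 in organoid 3. Both subunits thus lay lower in all 3 organoids, to unequal extent. Without organoid 2 there were 21 large and 12 small subunit genes called lower, beside 19.2% of all tested genes, and without organoid 1 there were 7 and 8, beside 17.1%. Organoids also varied more: the median SD of log2 levels over members was 0.08 in 2D culture and 0.49 in organoids, beside 0.13 and 0.64 over all tested genes.

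**Figure D3:**
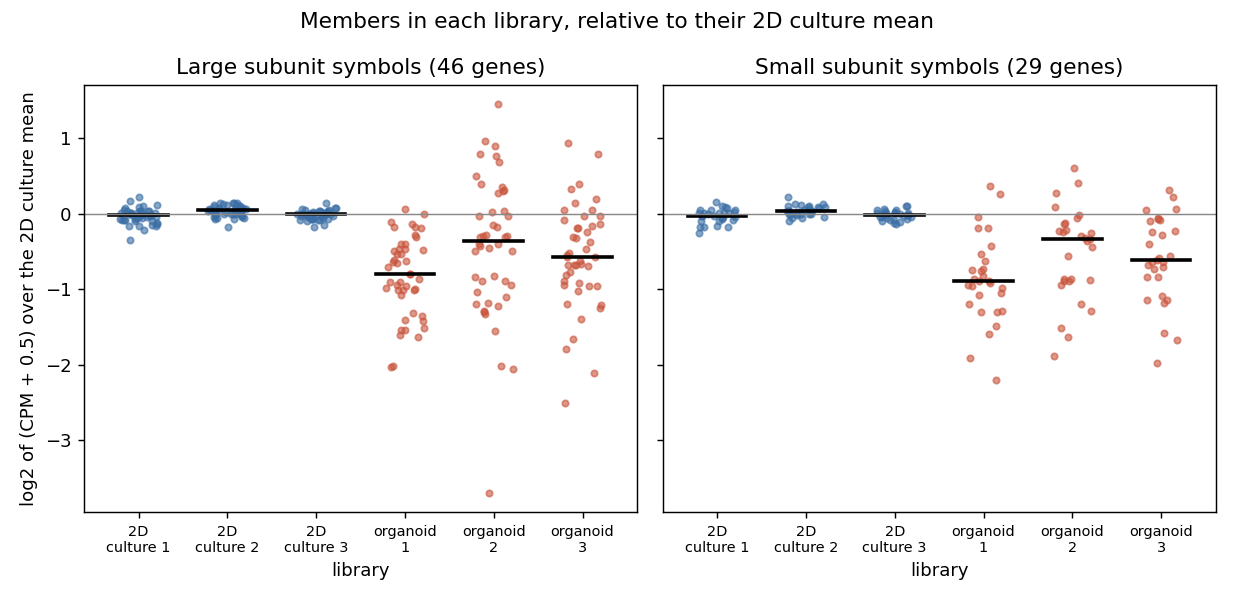
Each member in each library as the log2 ratio of its level (CPM + 0.5) to its 2D culture mean (y axis), for the large (left) and small (right) subunit. Points are genes and black bars are medians; the bars lie near 0 in 2D culture and at -0.80, -0.36 and -0.57 (large) and -0.90, -0.33 and -0.62 (small) in organoids.

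The subunits were also set against each other. The summed CPM of large over small subunit genes was 1.98, 2.03 and 2.05 in 2D culture and 2.13, 2.3 and 2.07 in organoid 1, 2 and 3. The ratio was higher in every organoid than in any 2D culture, but organoid 3 lay close to 2D culture 3. Sorted by position the ratio was 2.31, 2.36 and 2.38 in 2D culture and 2.48, 2.67 and 2.55 in organoids, again without overlap. The difference was not tested, since it is a score over the members.

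The remaining proteins of the particle carry other names. Of 5 such genes 1 fell (20%, beside 12.6% of all tested genes) and 4 did not pass. Ptcd3, an RNA-binding protein at the mRNA entrance of the small subunit, fell from 50.02, 44.97 and 51.4 CPM to 13.3, 23.4 and 20.0 CPM (-1.37 ± 0.27, adjusted p = 0.0129). Dap3, a GTP-binding protein of the small subunit, had -0.82 ± 0.26 (adjusted p = 0.054), and Aurkaip1, Chchd1 and Gadd45gip1 lay between -0.44 and -0.37. Of the other rows with lower-case symbols, mrpl24, which shares reads in 6 libraries, had -0.64 ± 0.31 and mrpl9 had 0.06 ± 0.25. With these 3 rows added, 14 of 78 genes were called lower (17.9%, beside 12.6% of all tested genes).

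Assembly factors fold and modify the ribosomal RNA and fit the proteins in place. Of 29 tested 4 fell and 0 rose (13.8%, beside 12.6% of all tested genes). Their values went both ways, 16 below and 13 above 0, with a median of -0.19 and the middle 50% between -1.08 and 0.54. Mpv17l2, needed for assembly at the inner membrane, fell from 33.4, 33.01 and 32.8 CPM to 13.8, 13.6 and 15.2 CPM (-1.22 ± 0.22, adjusted p = 0.0093), Mterf3 by 1.25 and the GTPase Noa1 by 1.08 on the log2 scale. Of 16 translation factors 4 fell and 1 rose (median -0.57). These are 25% and 6.25%, beside 12.6% and 14.9% of all tested genes. Elongation factors were among those that fell: Tufm, which brings the charged tRNA, from 89.3, 87.6 and 86.0 CPM to 57.4, 47.1 and 44.0 CPM (-0.82 ± 0.19, adjusted p = 0.0219), its exchange factor Tsfm by 1.66 and the translocase Gfm1 by 1.38 on the log2 scale. Gfm2, the paralog of Gfm1 that takes ribosomes apart after termination, rose from 17.7, 14.6 and 17.7 CPM to 44.8, 31.6 and 24.1 CPM (1.01 ± 0.30, adjusted p = 0.0455). Reads of Gfm2 were shared with other genes in all 6 libraries, and the gene kept its call under 7 of 15 alternatives.

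Among 13 genes that keep and transcribe mitochondrial DNA 0 were called by edgeR, beside 27.5% of all tested genes. At an unadjusted p under 0.05 stood 1 of the 13, beside 40.6% of all tested genes. Of the 13 values 5 lay below and 8 above 0 (median 0.15), and the difference from the members was not tested. Tfam, the packaging factor of mitochondrial DNA, was at 25.7, 25.9 and 26.5 CPM in 2D culture and 19.3, 14.6 and 17.0 CPM in organoids (-0.62 ± 0.24, adjusted p = 0.098), and Polrmt, the polymerase that Mrpl12 binds, had 0.11 ± 0.29. Among 8 tested regulators of mitochondrial biogenesis 1 fell (12.5%, beside 12.6% of all tested genes). Ppargc1b, a coactivator of such genes, had 1.81, 1.77 and 2.23 CPM in 2D culture and 0 counts in organoids, and was at least 35.3-fold lower against 3 counts over the group. Nrf1, Gabpa and Yy1, whose motifs are described here, did not pass (-0.24 ± 0.23, 0.14 ± 0.46 and 0.56 ± 0.35).

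Mitochondrial protein import, which brings every member to its place, had the largest share of falls among these lists. Of 20 genes 7 fell and 0 rose (35%, median -0.81), beside 12.6% of all tested genes called lower and 14.9% called higher. Hspa9, the import motor chaperone, fell from 497, 433 and 494 CPM to 107, 67.8 and 140 CPM (-2.18 ± 0.30, adjusted p = 0.00407) and Tomm40, the outer membrane channel, by 1.65 on the log2 scale. Among 76 nuclear respiratory chain subunits 16 fell and 1 rose (21.1% and 1.32%, median -0.56). That 1 gene was Ndufa4l2, a subunit known to be induced by low oxygen, at 0.736, 1.41 and 1.61 CPM in 2D culture and 2011, 1670 and 1906 CPM in organoids (10.54 ± 0.46), while its paralog Ndufa4 fell by 1.59. The medians of both mitoribosomal subunits, the translation factors and the respiratory chain thus lay between -0.71 and -0.53.

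Proteins of the cytosolic ribosome, the counterpart outside mitochondria, had 8 of 73 genes lower and 0 higher (median -0.32). The share called lower was 11% of these proteins, beside 12.6% of all tested genes. All organoids lay below all 2D cultures in 17.8% of the cytosolic list, against 54.7% of the mitoribosomal genes and 30.2% of all tested genes. The high share was not particular to the mitoribosome, as it was 50% in the respiratory chain list and 65% in the import list. It was 41.4% of assembly factors, 37.5% of translation factors, 15.4% of the DNA upkeep list and 12.5% of the biogenesis regulators. The summed level of this list was 18929, 21950 and 21426 CPM in 2D culture and 15009, 23239 and 16909 CPM in organoid 1, 2 and 3. Organoid 2 thus lay above every 2D culture. The called gene with the largest change, Rps21, fell by 1.22 on the log2 scale and shared reads in 6 libraries.

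**Figure D4:**
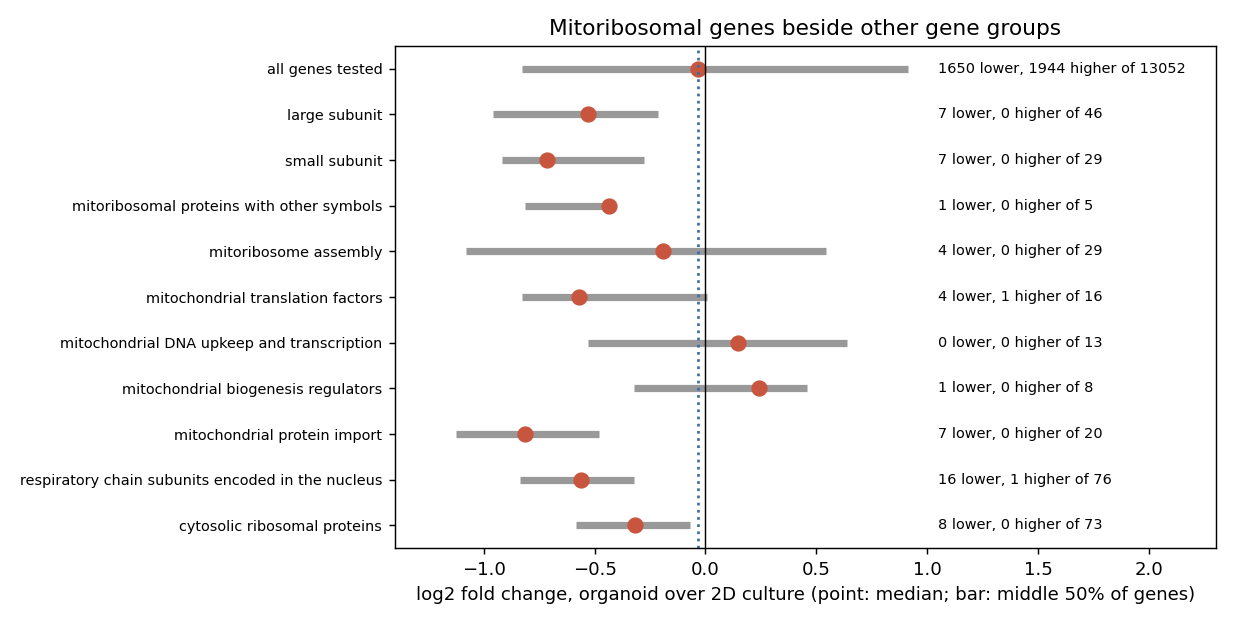
Median log2 fold change (points) and middle 50% of genes (bars) for all tested genes, both mitoribosomal subunits and 8 companion lists, with the numbers called lower and higher beside each. Protein import lies lowest (-0.81), and the DNA upkeep list (0.15) and the biogenesis regulators (0.24) lie above 0.

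Over the whole set of promoters, an NRF1 match was in 9 of 61 member promoters (14.8%), beside 10% of the 10615 promoters of tested genes and 4.71% of all promoters in the table. An ETS match was in 21 (34.4%, beside 17.8% and 9.22%), and a YY1 match (AAGATGGC or GCCATCTT) in 15 (24.6%, beside 5.52% and 3.44%). Matches of different motifs overlapped in no member. Of the 15 members with YY1 letters, 11 had them beginning at or after the start. The E-box CACGTG, searched beside them, was in 9.84% of member promoters and 9.26% of those of tested genes. A match is a description of the letters and not evidence of binding.

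The median log2 fold change was -0.80 over members with YY1 letters and -0.45 over those without, and for all tested genes -0.10 and -0.03. Over all tested genes the values with and without were -0.21 and 0.01 for ETS letters, -0.09 and -0.03 for NRF1 letters and -0.19 and -0.02 for the E-box. Of the 10 called members with a promoter 5 hold YY1 letters, namely Mrpl37, Mrpl49, Mrps18b, Mrps27 and Mrps30. Over members the median was -0.44 with NRF1 letters against -0.53 without, -0.53 against -0.47 for ETS letters and -0.63 against -0.48 for the E-box. NRF1 letters went opposite ways in the subunits, with -0.31 against -0.53 in the large (7 genes with them) and -0.91 against -0.57 in the small (2 genes with them). None of these differences was tested.

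Many members start back to back with another gene. In RefSeq, 18 of the 61 members (29.5%) had a start on the other strand within 1000 bases upstream, beside 16% of promoters of tested genes. Of 17 tested neighbours 3 fell, 2 rose and 12 did not pass (median -0.34), beside 12.6% lower and 14.9% higher over all tested genes. In 0 pairs were both genes called lower, and the pair of Mrpl46 and Mrps11 is counted from both sides. Mrpl46 and Mrps11, a large and a small subunit gene, face each other with 234 bases between their starts, and had -1.04 ± 0.43 and -0.73 ± 0.36. Neighbours could differ widely: Eme1, a DNA repair nuclease subunit whose start lies 44 bases from that of Mrpl27, fell by 2.89 on the log2 scale, while Mrpl27 had -0.65 ± 0.22 (adjusted p = 0.0709). Gga3, a sorting adaptor of the Golgi, rose by 1.27 ± 0.23 beside Mrps7 at -1.09 ± 0.33. Mrpl49 fell beside Fau, which encodes a protein of the cytosolic ribosome and did not pass (-0.28 ± 0.23).

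Reads shared with copies elsewhere could touch some of these values. A fractional count, which marks reads shared between genes, occurred in 11 members, 1 of them called, and RefSeq lists a named pseudogene for 23. Among the 64 members with whole counts in all 6 libraries 13 were called lower (20.3%, median -0.54), close to the share over all members (18.7%, median -0.54).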

How the data were processed

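The 6 libraries were made from rat cells and organoids for DNBSEQ sequencing of mRNA, per the labels' protocols, and grouped by their titles. The values the authors deposited, 1 table per library, are expected counts: estimates of reads per gene, some fractional, and not normalised. Tools in the submitters' processing notes, with no role stated, are RSEM, Bowtie2, HISAT2, HISAT and DESeq2. Build, annotation, strand and aligner options were not given in the sources used here.

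Counts were rounded and analysed in R 4.3.3 with edgeR 4.0.16: filterByExpr (minimum count 10), TMM scaling, robust quasi-likelihood F-test, Benjamini-Hochberg adjustment over all 13052 tested genes at 0.05. Standard errors were obtained by dividing the size of each log2 fold change by the root of its F statistic. Alternatives used limma 3.58.1, DESeq2 1.42.0, other scalings and filters, and leaving out each library. The steps were tested on simulated data with the same spread in both groups. They were thus not tested under the unequal spread of these libraries.

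The members, gene lists and tests were chosen with earlier results of these data known. Genes named are, per subunit, the 6 called members with the largest falls and with the largest rises, the 3 members not called nearest to 0, a panel of 10, and up to 3 called genes per companion list plus the largest opposite change. Mrpl17 and other members, list genes, neighbours and promoters that the text adds to these were picked with their values in view. No transcript lengths were used, so sums and ratios of CPM over different genes reflect reads and not numbers of transcripts.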

Additional observations from a re-analysis of the deposited data

How the results depend on the processing

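When libraries were scaled by their totals alone, 24 large and 16 small subunit genes were called lower, and the medians were -1.13 and -1.28. Of 240 tested genes of the companion lists 99 were called either way, against 43 with TMM. Over all tested genes 27.1% were called lower and 8.14% higher with totals, against 12.6% and 14.9% with TMM. DESeq2 called 12 large and 9 small subunit genes lower, beside 17.4% of all genes it tested. It called 72 companion genes either way, beside 17.4% of all genes lower and 20.5% higher. With limma-voom 12 large and 10 small subunit genes were called lower, beside 19% of all tested genes. The deviations of same-numbered libraries from their group means correlated weakly over genes (r = 0.061, 0.187 and 0.021), which does not show a pairing. With the replicate block 6 large and 5 small subunit genes were called lower, 10 of them among the 14, beside 9.88% of all tested genes. It called 25 companion genes either way, beside 9.88% of all tested genes lower and 11% higher. Leaving out 1 library at a time gave 1109 to 5321 calls over all genes, with 2.98% to 19.2% called lower and 5.25% to 20.5% higher. Beside these stood 2 to 21 large and 0 to 12 small subunit genes called lower and 0 to 2 large subunit genes called higher. Companion genes called either way numbered 6 to 120. The large subunit gained its 2 higher calls (Mrpl43 and Mrpl52) without organoid 1. The cause of these shifts was not tested.

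Some named members that were not called changed sign. With total scaling the log2 fold change was -0.20 for Mrpl40, -0.007 for Mrpl52, -0.51 for Mrpl54 and -0.62 for Mrps6. With a minimum mean of 10 CPM it was 0.043 for Mrpl23, 0.021 for Mrpl53, 0.087 for Mrps5 and 0.029 for Mrps23. Without a filter on low counts Mrpl54 had -0.015 and Mrps6 -0.009. Under limma-voom, limma-voom with group weights and the replicate block Mrpl54 had -0.25, -0.26 and -0.25, and Mrps6 -0.048, -0.046 and -0.063. Mrps5 had 0.0204 with DESeq2 size factors in edgeR and 0.0203 in DESeq2. Leaving out 1 library at a time, Mrpl23 ranged from -0.74 to 0.23, Mrpl44 from -0.62 to 0.041, Mrpl53 from -0.31 to 0.12, Mrpl54 from -0.79 to 0.37, Mrpl58 from -0.42 to 0.13, Mrps5 from -0.14 to 0.15, Mrps6 from -0.14 to 0.40, Mrps18a from -0.53 to 0.013 and Mrps23 from -0.14 to 0.056.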
